A study of Homo sapiens with 54 samples.

Results

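Macrophages made from the human embryonic stem cell line H1 were examined for 7 genes whose products meet T cells or neighbouring leukocytes: CD80, CD86, CD40, CD274 (PD-L1), PDCD1LG2 (PD-L2), VSIR (VISTA) and SLAMF7. The members were set by a list of gene symbols, and all 7 were found among the 58735 genes of the bulk RNA table and among the 36601 genes of the day 12 single-cell matrix. The study grew macrophages on a porous 3D microscaffold and compared them with macrophages from flat 2D culture. The 32 bulk libraries fell into 11 groups: 3D SP6A, 3D SP14 and 3D E. coli (2 libraries each), 3D days 16, 19 and 23 with FBS (foetal bovine serum) in the label (3 each), 3D day 12 (4), 3D days 16, 19 and 23 without FBS in the label (3 each), and 2D day 12 (4). SP6A and SP14 are given in the labels as time points with no further meaning, and the E. coli libraries carry no day. The single-cell data were 1 droplet library of 3D culture at day 12.

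B7 molecules deliver the second signal that decides whether a T cell that has recognised antigen is activated or restrained. CD80 and CD86 bind CD28, which activates, and CTLA4, which restrains. CD274 and PDCD1LG2 bind the inhibitory receptor PD-1, and VSIR is a B7-related molecule of myeloid cells that dampens T cell responses. CD40, a receptor of the TNF receptor family, takes the signal of CD40LG from helper T cells and turns on NF-kB. SLAMF7 is a self-binding receptor of the SLAM family found on macrophages, natural killer cells and plasma cells. Resting macrophages usually carry little CD80, and microbial products and interferon gamma are known to raise several of these molecules. In bulk libraries, fewer cells of a type and less RNA per cell cannot be told apart.

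In the RefSeq annotation (GRCh38.p14) CD80 (ENSG00000121594) spans chr3:119524293-119559614 and CD86 (ENSG00000114013) spans chr3:122055362-122121136. CD274 (ENSG00000120217) at chr9:5450542-5470554 and PDCD1LG2 (ENSG00000197646) at chr9:5510531-5571282 lie on the same chromosome, 39976 bases apart. CD40 (ENSG00000101017) lies at chr20:46118314-46129858, VSIR (ENSG00000107738) at chr10:71747556-71773520 and SLAMF7 (ENSG00000026751) at chr1:160739057-160754821. Promoter windows of 300 bases (250 before to 50 after a start) were at hand for 4 of the members, CD80, CD86 with 2 starts, CD274 and VSIR. They were searched on both strands for the NF-kB consensus, the AP-1 motif TGANTCA, the interferon-stimulated response element (2 runs of GAAA parted by any 2 bases) and the PU.1 motif GAGGAAG, which 5.91, 7.71, 3.57 and 13.6% of 35116 such windows hold. The CD274 window held 2 overlapping interferon-response matches on the opposite strand, starting 208 and 202 bases before the start. The downstream start of CD86 had overlapping NF-kB matches at 82 and 81 bases before it, and the upstream start had PU.1 matches 77 bases before and 11 bases after it. The VSIR window had 1 NF-kB match, 130 bases before the start, and the CD80 window had 0 of these motifs. These stretches are shown because CD274 and CD86 hold different motifs of this set. The difference does not follow function, since the inhibitory VSIR also held an NF-kB match and CD80 held none. Capitals mark the matches, which describe letters and not bound factors, and the stretches end before the start.
CD274, chr9:5450292-5450441, plus strand: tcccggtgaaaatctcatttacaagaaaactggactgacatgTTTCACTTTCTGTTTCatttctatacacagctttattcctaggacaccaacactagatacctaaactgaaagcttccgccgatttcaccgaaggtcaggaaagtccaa
CD86 downstream start, chr3:122077634-122077783, plus strand: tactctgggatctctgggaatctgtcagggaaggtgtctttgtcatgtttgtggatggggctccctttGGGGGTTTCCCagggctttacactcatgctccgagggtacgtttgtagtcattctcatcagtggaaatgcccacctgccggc
CD86 upstream start, chr3:122055212-122055361, plus strand: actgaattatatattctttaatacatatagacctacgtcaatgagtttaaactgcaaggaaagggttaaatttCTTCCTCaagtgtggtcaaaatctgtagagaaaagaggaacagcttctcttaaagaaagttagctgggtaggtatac

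Bulk values are TPM, a relative abundance scaled for transcript length and library total. Changes were computed between group means of log2(TPM + 1), with a standard error (SE), and tested with limma over all genes with a mean of at least 1 TPM, and "rose" or "fell" stands for a Benjamini-Hochberg adjusted p under 0.05. This scale understates the changes of low genes such as CD80 and PDCD1LG2. The labels do not say that libraries of a group came from separate cultures, so p-values measure only the spread between libraries within groups. In comparisons among 3D groups that spread is pooled over all 28 3D libraries, the E. coli libraries included, and is not that of the compared groups alone. No source used here gives read totals, and depth is described by the genes detected, 11862 to 13257 genes at 1 TPM or more per library outside the E. coli group. The E. coli libraries stood apart with 7954 and 8103 genes and a correlation of 0.657 with each other, against 0.891 to 0.968 within other groups. All 14 macrophage markers averaged at least 1 TPM in all 11 groups, while 5 to 8 of 15 dendritic cell markers did, led by FSCN1 or CD83, with FLT3 and CCL17 listed at 0 in every library. The dendritic cell markers summed to 131 to 1053 TPM per library. Library composition also differed, since 3 genes named by genomic clones took 0.373 to 0.516% of the TPM in 2D and up to 32.3% in 3D day 19 with FBS.

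CD86, CD40 and VSIR were above 1 TPM in all 32 libraries, with medians of 56.9, 44.4 and 105 TPM. CD80, CD274 and PDCD1LG2 were low, with highest values of 13.1, 12.8 and 10.1 TPM, and they were listed at 0 in 5, 4 and 9 libraries. SLAMF7 had 0 to 211 TPM. The sum of the 7 genes was 1044 ± 48.2 TPM in SP14 and 867 ± 28 TPM in SP6A (SD, n = 2 each), 485 ± 77.1 TPM in E. coli (SD, n = 2) and between 166 and 298 TPM in the mean of each other group. VSIR was the largest member of the sum in 2D day 12 (58.3%) and 3D day 12 (49.8%). CD86 took 46.2% of it in SP14 and 48.2% in day 19 with FBS, and SLAMF7 took 36.4% in E. coli and 34.5% in 3D day 23.

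**Figure D1:**
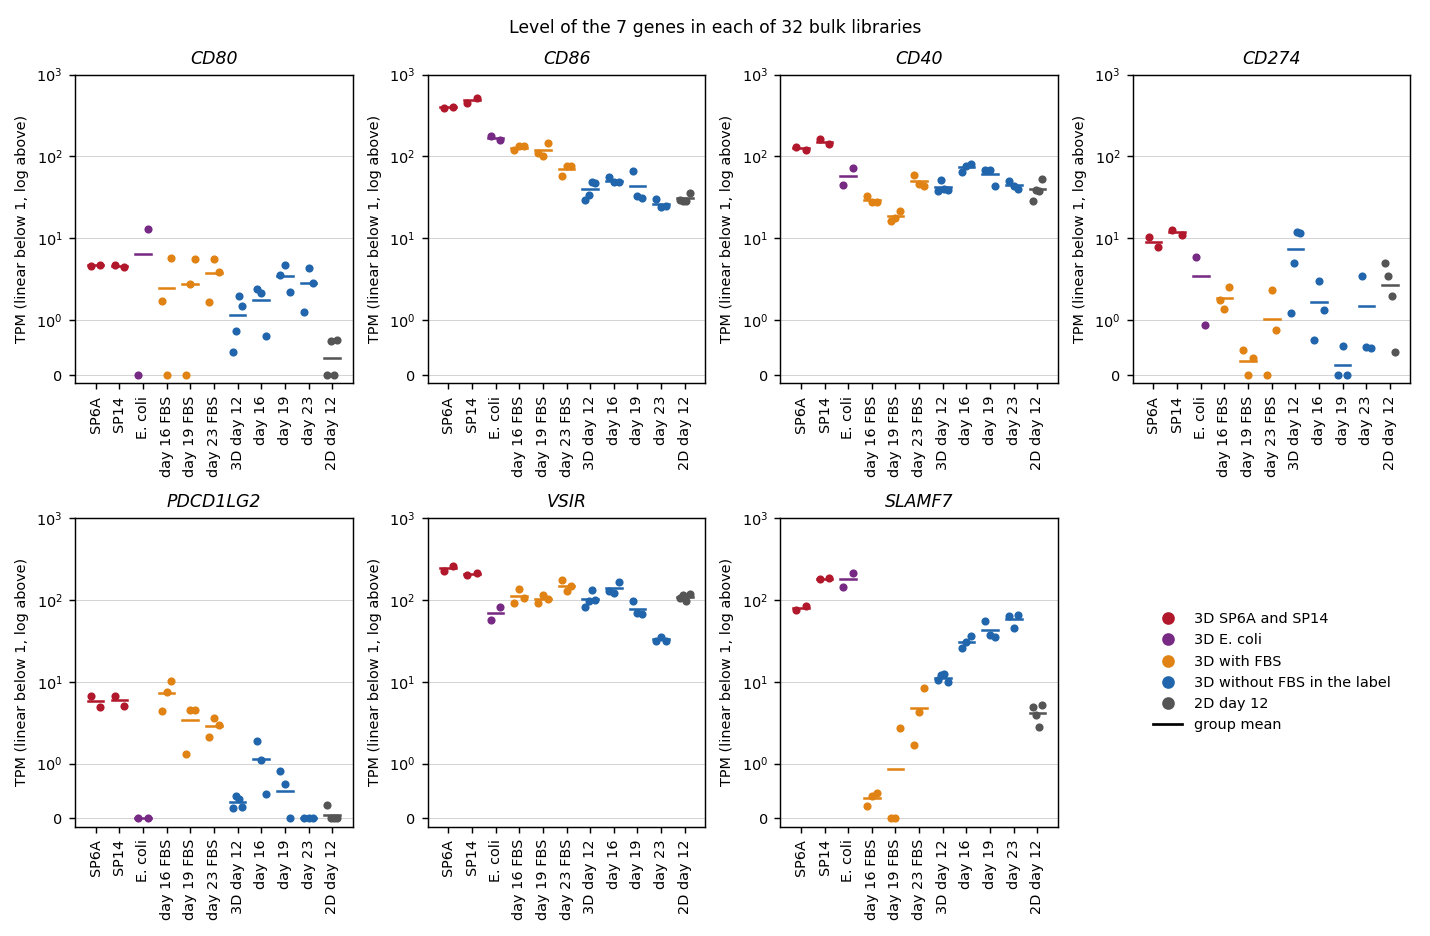
TPM of each gene (y axis, linear below 1 and logarithmic above) in the 32 bulk libraries (points) of 11 groups (x axis), with group means as lines. CD86 was highest in SP14 and SP6A, and SLAMF7 was under 9 TPM in the 9 libraries with FBS and at 25.7 TPM or more in the 9 libraries of the same days without it.

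**Figure D2:**
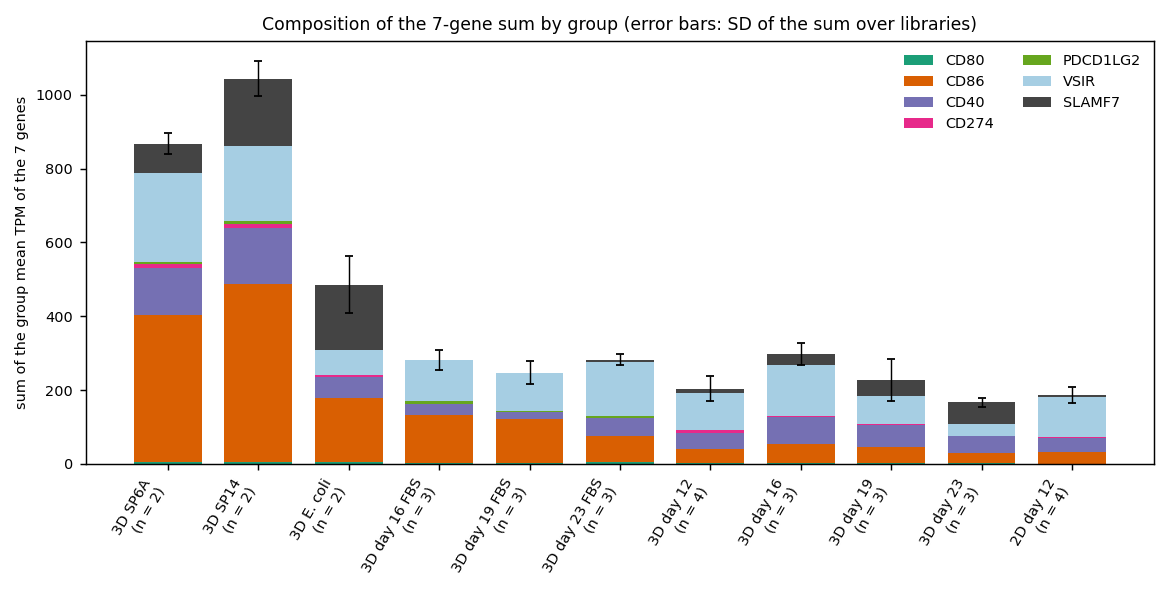
Sum of the group mean TPM of the 7 genes (y axis) per group (x axis), split by gene, with the SD of the sum over libraries as error bars. The sum was largest in SP14 (1044 TPM), and VSIR, CD86 and SLAMF7 each led it in different groups.

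The first comparison asks how 3D culture differs from 2D culture at day 12. SLAMF7 was the 1 member that rose of the 5 that passed the filter on low values, beside 37.8% of all 13131 genes tested (13% higher and 24.7% lower). SLAMF7 had 10.5, 12.1, 12.3 and 9.82 TPM in 3D libraries, against 4.90, 3.94, 2.77 and 5.23 TPM in 2D libraries. The groups did not overlap (log2 change 1.25, SE 0.20, adjusted p = 0.00203). CD86 had 29.6, 33.9, 48.9 and 47.2 TPM in 3D, against 29.3, 29.0, 28.7 and 36.3 TPM in 2D. The 2 groups overlapped and CD86 was not called (log2 change 0.34, 95% interval -0.13 to 0.81, adjusted p = 0.233). The 2 highest 3D libraries of CD86 were also the highest for CD274, which had 1.23, 5.08, 12.0 and 11.6 TPM in 3D, against 5.02, 3.46, 2.01 and 0.43 TPM in 2D. CD274 was not called (log2 change 1.07, SE 0.64, adjusted p = 0.223), while without the first 3D library it was (log2 change 1.61, adjusted p = 0.0497). CD40 averaged 42.2 ± 6.21 TPM in 3D and 39.8 ± 10.0 TPM in 2D, and VSIR averaged 102 ± 20.3 TPM in 3D and 108 ± 10.4 TPM in 2D (SD, n = 4 each, neither called). CD80 and PDCD1LG2 lay under the filter. CD80 had 0.42, 0.81, 1.98 and 1.5 TPM in 3D, against 0, 0.63, 0 and 0.64 TPM in 2D (two-sided exact permutation p = 0.114, n = 4 each, smallest possible p 0.0286). PDCD1LG2 was at or below 0.40 TPM in all 8 libraries (two-sided exact permutation p = 0.0857). The 3D libraries held far less RNA of other blood lineages: the summed TPM of 9 granulocyte progenitor markers was 114 to 537 in 3D and 2154 to 3698 in 2D, and that of 8 megakaryocyte or platelet markers was 15.2 to 39.4 in 3D and 700 to 1234 in 2D. The macrophage marker sum was 13403 to 15671 TPM in 3D and 10925 to 11716 TPM in 2D, and the part of these differences in the SLAMF7 result was not tested.

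The later 3D groups without FBS in the label follow the culture beyond day 12, and all 3 comparisons share the 4 day 12 libraries. SLAMF7 rose at each of them. It had 10.5, 12.1, 12.3 and 9.82 TPM at day 12, 25.7, 30.7 and 36.2 TPM at day 16, 54.5, 37.6 and 35.3 TPM at day 19, and 62.9, 45.1 and 64.8 TPM at day 23. All 9 later libraries lay above all day 12 libraries (log2 change 1.38, adjusted p = 0.0171 at day 16, 1.81, adjusted p = 0.00298 at day 19 and 2.25, adjusted p = 0.00018 at day 23). The day 16 call is lost with a pseudocount of 0.5 (adjusted p = 0.0532), under median-ratio scaling of the TPM (adjusted p = 0.0591) and without day 16 replicate 2 or 3 (adjusted p = 0.0511 and 0.0764). CD40 had 37.8, 51.4, 40.2 and 39.3 TPM at day 12, and 64.9, 75.8 and 79.9 TPM at day 16. It rose at day 16 (log2 change 0.79, SE 0.22, adjusted p = 0.0139), and that call is lost under median-ratio scaling (log2 change 0.45, adjusted p = 0.212) and without day 16 replicate 2 or 3 (adjusted p = 0.0508 and 0.0637). At days 19 and 23 CD40 had group means of 60.5 and 44.9 TPM and was not called.

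Among the inhibitory ligands, CD274 fell at days 19 and 23 and VSIR at day 23. CD274 had 1.23, 5.08, 12.0 and 11.6 TPM at day 12, 0.65, 3.03 and 1.34 TPM at day 16, 0, 0.54 and 0 TPM at day 19, and 3.48, 0.52 and 0.50 TPM at day 23. All day 19 libraries lay below all day 12 libraries, and CD274 fell (log2 change -2.57, SE 0.56, adjusted p = 0.00326). At day 23 the groups overlapped and it also fell (log2 change -1.66, adjusted p = 0.0321). That day 23 call is lost with no filter (adjusted p = 0.0754), with a block for replicate numbers (log2 change -1.37, adjusted p = 0.126), without day 12 replicate 3 or 4 (adjusted p = 0.108 and 0.104) and without day 23 replicate 2 or 3 (adjusted p = 0.129 and 0.136). At day 16 CD274 was not called (log2 change -1.46, adjusted p = 0.0802), but it was under median-ratio scaling (adjusted p = 0.0406), without the E. coli libraries in the fit (adjusted p = 0.0448) and without the first day 12 library (adjusted p = 0.011). VSIR had 81.4, 96.8, 130 and 98.6 TPM at day 12, 128, 122 and 166 TPM at day 16, 96.0, 68.7 and 66.5 TPM at day 19, and 31.2, 35.5 and 31.7 TPM at day 23. It was not called at days 16 and 19, and at day 23 it fell with no overlap of the groups (log2 change -1.58, SE 0.22, adjusted p = 1.69e-05). PDCD1LG2 had 0.19, 0.40, 0.36 and 0.21 TPM at day 12, reached 1.88 TPM in 1 day 16 library and was listed at 0 in all day 23 libraries, with no call. CD80 had group means of 1.18, 1.75, 3.5 and 2.83 TPM at days 12, 16, 19 and 23, and CD86 had 39.9, 50.9, 43.1 and 26.6 TPM, and neither was called. In all, 2, 2 and 3 of the 7 members were called at days 16, 19 and 23, beside 16.6, 11.8 and 25.6% of 13384 genes. At day 16 both members rose, beside 10.3% of genes higher and 6.25% lower. At day 19 the split was 1 member up and 1 down, beside 6.37% higher and 5.39% lower. At day 23 it was 1 up and 2 down, beside 10.5% higher and 15.1% lower. The summed TPM of the 14 macrophage markers was 13403 to 15671 at day 12, 22442 to 25312 at day 16, 18636 to 20573 at day 19 and 14585 to 15097 at day 23, and 9 of the 14 rose at day 16. The 9 markers of dividing cells summed to 737 to 943 TPM at day 12, 84.9 to 131 TPM at day 16, 489 to 592 TPM at day 19 and 212 to 253 TPM at day 23. The 10 T or NK cell markers, led by NKG7 at day 12, summed to 197 to 232 TPM at day 12, 21.4 to 38.4 TPM at day 16, 27 to 39.6 TPM at day 19 and 172 to 192 TPM at day 23. Of these markers CD3E and CD3G were listed at 0 in every library of these days. The 11 erythroid markers summed to 27.7 to 1724 TPM at day 12 and to at most 5.29 TPM in the later libraries. The part of these marker sums in the members' changes was not tested.

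The FBS comparison sets 3D libraries with FBS in the label against those without it in the label at the same day. Below, "with" and "without" stand for the label only. On the mean of days 16, 19 and 23, CD86, PDCD1LG2 and VSIR rose, SLAMF7 and CD40 fell, and CD80 and CD274 were not called, so 5 of 7 were called beside 34.3% of 13384 genes (18.6% higher and 15.7% lower). SLAMF7 had 0.22, 0.40 and 0.47 TPM with FBS at day 16, against 25.7, 30.7 and 36.2 TPM without. At day 19 SLAMF7 had 0, 0 and 2.72 TPM with FBS, against 54.5, 37.6 and 35.3 TPM without. At day 23 it had 1.69, 4.25 and 8.43 TPM with FBS, against 62.9, 45.1 and 64.8 TPM without. The groups did not overlap at any of the 3 days, and SLAMF7 fell on their mean (log2 change -4.27, SE 0.24, adjusted p = 2.31e-11). CD86 had 119, 133 and 134 TPM with FBS at day 16, against 55.7, 48.4 and 48.5 TPM without. CD86 had 112, 102 and 144 TPM with FBS at day 19, against 65.9, 32.5 and 30.9 TPM without. At day 23 it had 58.0, 76.6 and 76.2 TPM with FBS, against 30.7, 24.3 and 24.8 TPM without. Again no day showed an overlap (log2 change of the mean 1.4, SE 0.15, adjusted p = 3.83e-07), and the changes at single days, 1.32, 1.52 and 1.37, were all called. Whether the CD86 change differed between days was tested as an interaction and was not called (adjusted p = 0.941). The ratio of CD86 to CD40 TPM averaged 4.43, 6.42 and 1.45 with FBS at days 16, 19 and 23, against 0.702, 0.71 and 0.592 without.

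CD40 fell with FBS at days 16 and 19. CD40 had 33.1, 27.5 and 27.6 TPM with FBS at day 16, against 64.9, 75.8 and 79.9 TPM without. At day 19 CD40 had 16.2, 18.0 and 21.6 TPM with FBS, against 69.1, 68.2 and 44.2 TPM without. At day 23 the groups overlapped, with 58.8, 46.5 and 44.1 TPM with FBS, against 50.7, 43.7 and 40.3 TPM without. The change was -1.29 at day 16 (adjusted p = 0.000469), -1.63 at day 19 (adjusted p = 2.69e-05) and 0.14 at day 23 (adjusted p = 0.768), and the interaction of FBS with day was called for CD40 (adjusted p = 0.00181). VSIR was the other member with such a call, beside 12.9% of 13384 genes. VSIR had 173, 127 and 148 TPM with FBS at day 23, against 31.2, 35.5 and 31.7 TPM without, and the libraries did not overlap (log2 change 2.14, SE 0.24, adjusted p = 2.05e-06). At day 16 VSIR had 90.9, 136 and 106 TPM with FBS, against 128, 122 and 166 TPM without, and at day 19 it had 90.4, 113 and 101.1 TPM with FBS, against 96.0, 68.7 and 66.5 TPM without. It was called at neither of those days, and the interaction had an adjusted p = 0.000129. PDCD1LG2 had 4.35, 7.60 and 10.1 TPM with FBS at day 16, against 1.88, 1.12 and 0.45 TPM without. PDCD1LG2 had 1.3, 4.51 and 4.49 TPM with FBS at day 19, against 0.87, 0.62 and 0 TPM without. At day 23 it had 2.13, 3.59 and 3.00 TPM with FBS and was listed at 0 in all 3 libraries without. The groups were apart at all 3 days and PDCD1LG2 rose at each (adjusted p = 0.000351, 0.00244 and 0.000388), with a log2 change of 1.95 at day 16 and 1.51 at day 19. CD274, the other PD-1 ligand, was not called at any day, with 0 to 2.52 TPM over the 9 libraries with FBS and 0 to 3.48 TPM over the 9 without. CD80 had 0 to 5.73 TPM with FBS and 0.71 to 4.69 TPM without (log2 change of the mean -0.10, 95% interval -1.02 to 0.83). At single days 4 of 7 members were called each time, beside 18.1, 25 and 13.7% of genes at days 16, 19 and 23. Of these members 2 rose and 2 fell at days 16 and 19, beside 7.96 and 12.8% of genes higher and 10.1 and 12.2% lower, and 3 rose and 1 fell at day 23, beside 8.87% higher and 4.86% lower. The summed macrophage markers were 18930 to 23235 TPM with FBS at day 16, against 22442 to 25312 TPM without, and 19568 to 21245 TPM with FBS at day 19, against 18636 to 20573 TPM without. At day 23, where VSIR rose with FBS, they were 22330 to 24462 TPM with FBS, against 14585 to 15097 TPM without. The dendritic cell markers summed to 131 to 221 TPM with FBS and 213 to 502 TPM without. The 6 B or plasma cell markers summed to 0 to 3.49 TPM with FBS and 0.28 to 3.80 TPM without. The T or NK cell markers summed to 45.9 to 79.7 TPM with FBS at day 16, against 21.4 to 38.4 TPM without, to 84.9 to 110 TPM with FBS at day 19, against 27 to 39.6 TPM without, and to 83.6 to 96.2 TPM with FBS at day 23, against 172 to 192 TPM without. RUNX3 led the T or NK cell sum with FBS at each day, and CD3D and CD2 were listed at 0 in every library with FBS. The part of these marker sums in the members' changes with FBS was not tested.

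**Figure D3:**
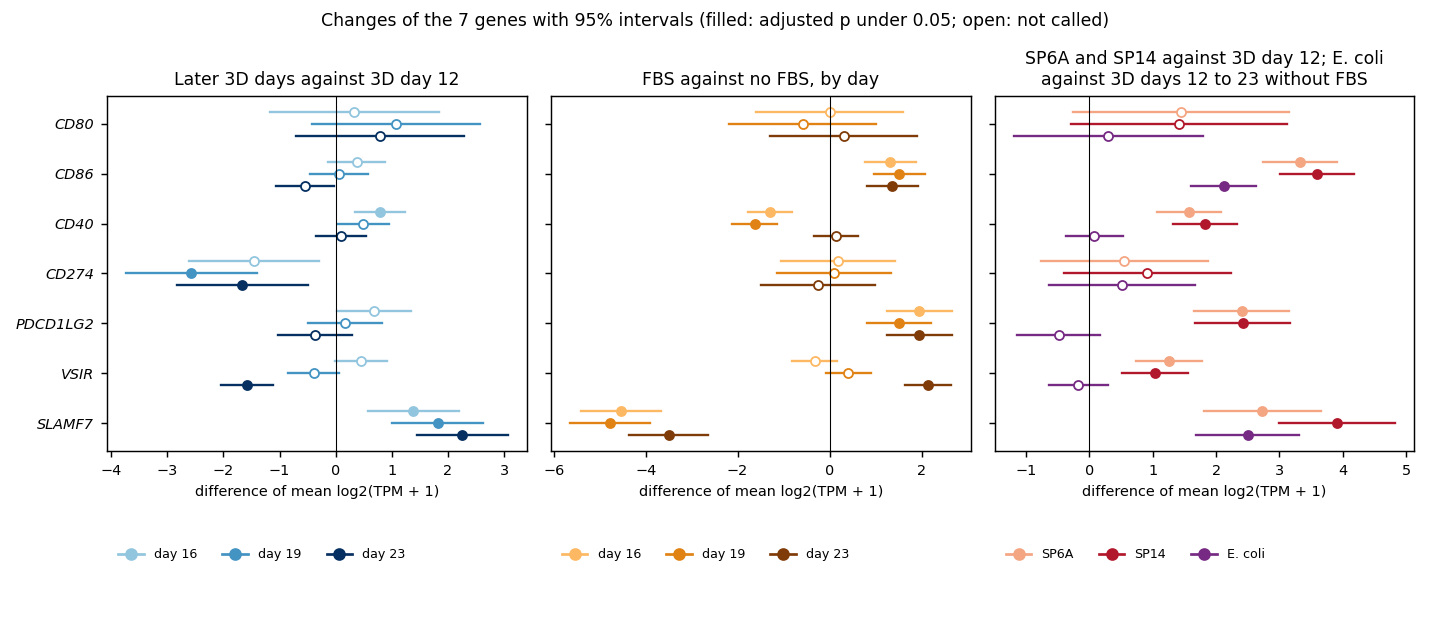
Difference of mean log2(TPM + 1) (x axis) of each gene (rows) with its 95% interval, for later 3D days against day 12 (left), FBS against no FBS by day (middle), and SP6A and SP14 against 3D day 12 and E. coli against 3D without FBS (right). Filled points passed an adjusted p under 0.05. SLAMF7 lies on opposite sides of 0 for time (1.38 to 2.25) and for FBS (-4.78 to -3.5).

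SP6A and SP14 were set against 3D day 12, whose 4 libraries both comparisons share. In both, CD86, CD40, PDCD1LG2, VSIR and SLAMF7 rose, 5 of 7 members beside 27.9% of 13384 genes for SP6A (17.1% higher and 10.8% lower) and 31.4% for SP14 (18.4% higher and 13% lower). CD86 had 394 and 405 TPM in SP6A and 446 and 521 TPM in SP14, against 29.6, 33.9, 48.9 and 47.2 TPM in 3D day 12. These were the highest 4 values of CD86 in the series (log2 change 3.32, SE 0.28, adjusted p = 1.22e-08 for SP6A and 3.59, SE 0.28, adjusted p = 3.03e-09 for SP14). CD40 had 132 and 121 TPM in SP6A and 162 and 140 TPM in SP14, against 37.8, 51.4, 40.2 and 39.3 TPM in 3D day 12 (log2 change 1.57, adjusted p = 4.32e-05 and 1.82, adjusted p = 5.6e-06). SLAMF7 had 75.8 and 83.3 TPM in SP6A and 180 and 183 TPM in SP14, against 10.5, 12.1, 12.3 and 9.82 TPM in 3D day 12 (log2 change 2.73, adjusted p = 6.52e-05 and 3.91, adjusted p = 5.84e-07). VSIR had 224 and 260 TPM in SP6A and 198 and 213 TPM in SP14, against 81.4, 96.8, 130 and 98.6 TPM in 3D day 12 (log2 change 1.26, adjusted p = 0.000613 and 1.03, adjusted p = 0.00306). PDCD1LG2 had 6.76 and 4.98 TPM in SP6A and 6.77 and 5.09 TPM in SP14, against 0.19 to 0.40 TPM in 3D day 12 (log2 change 2.40, adjusted p = 2.54e-05 and 2.42, adjusted p = 1.87e-05).

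The other 2 members were not called. CD274 had 10.3 and 7.90 TPM in SP6A and 12.8 and 11.1 TPM in SP14, and overlapped the 1.23 to 12.0 TPM of 3D day 12 in both (log2 change 0.55, 95% interval -0.77 to 1.86, and 0.91, 95% interval -0.41 to 2.23). CD80 had 4.66 and 4.74 TPM in SP6A and 4.69 and 4.46 TPM in SP14, above the 0.42 to 1.98 TPM of 3D day 12 without being called (log2 change 1.45, SE 0.82, adjusted p = 0.208 and 1.41, SE 0.82, adjusted p = 0.209). Between SP14 and SP6A 0 members were called by limma, and 1 of 7 (SLAMF7, log2 change 1.18, adjusted p = 1) had an unadjusted p under 0.05, beside 3.2% of 13384 genes with such a p. By adjusted p 0.0299% of genes were called (0.0224% higher and 0.00747% lower). The SLAMF7 values were 180 and 183 TPM in SP14, against 75.8 and 83.3 TPM in SP6A. The ranges of CD86, CD40, CD274, VSIR and SLAMF7 did not overlap between SP14 and SP6A. With 2 libraries in each group such separation is weak, and its share over all genes was not computed. No difference between SP14 and SP6A is read from it. The summed macrophage markers were 26038 to 27077 TPM in SP6A and 24391 to 24556 TPM in SP14, against 13403 to 15671 TPM in 3D day 12, and their part in these changes was not tested. The 8 endothelial markers, led by EGFL7, summed to 368 to 379 TPM in SP6A and 333 to 356 TPM in SP14, against 70.2 to 129 TPM in 3D day 12. EGFL7 alone averaged 280 TPM in SP6A, 229 TPM in SP14 and 89.9 TPM in 3D day 12. Only 3 of the 8 averaged at least 1 TPM in each of these groups, and CLDN5 and ERG were at 0 in SP6A and SP14. The 15 dendritic cell markers, led by CD83 in SP6A and SP14, summed to 585 to 613 TPM in SP6A and 1003 to 1053 TPM in SP14, against 297 to 629 TPM in 3D day 12, with FLT3 and CCL17 at 0 in all 3 groups.

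The E. coli libraries were compared with the averaged 3D groups of days 12, 16, 19 and 23 that had no FBS in the label. CD86 and SLAMF7 rose, 2 of 7 members beside 56.6% of 13384 genes (13.7% higher and 42.9% lower). CD86 had 179 and 160 TPM in E. coli, against 24.3 to 65.9 TPM in the 13 unexposed libraries (log2 change 2.12, SE 0.25, adjusted p = 2.67e-07). SLAMF7 had 144 and 211 TPM in E. coli, against 9.82 to 64.8 TPM in the unexposed libraries (log2 change 2.50, SE 0.39, adjusted p = 1.36e-05). Neither gene overlapped between the groups. CD80 showed the disagreement of the 2 E. coli libraries, with 0 and 13.1 TPM, the second being the highest CD80 value in the series, and the mean was not called (log2 change 0.30, adjusted p = 0.738). Without the first E. coli library CD80 was called higher (log2 change 2.20, adjusted p = 0.0212), and without the second it was not called (log2 change -1.61). CD274 had 5.97 and 0.91 TPM, CD40 had 44.7 and 71.4 TPM and VSIR had 55.9 and 82.4 TPM in E. coli, none called, and PDCD1LG2 was listed at 0 in both. These libraries detected fewer genes, and mitochondrial genes took 17.2 and 25.2% of their TPM, against 4.24 to 8.57% in the unexposed libraries. The 9 granulocyte progenitor markers, led by CLC in E. coli, summed to 987 and 2207 TPM there, against 33.3 to 850 TPM in the unexposed libraries. CLC averaged 876 TPM in E. coli, while MPO, PRTN3, ELANE and CTSG were listed at 0 in both E. coli libraries. The 14 macrophage markers summed to 11078 and 13136 TPM in E. coli, against 13403 to 25312 TPM in the unexposed libraries. The 11 erythroid markers summed to 0 and 3484 TPM in E. coli, against 0 to 1724 TPM in the unexposed libraries. The 7 mast or basophil markers summed to 165 and 188 TPM in E. coli, against 0 to 96.5 TPM in the unexposed libraries. The part of these differences in the result was not tested.

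Genes of the same pathways were read from 5 lists chosen by known function. Of 13 other costimulatory and coinhibitory ligands tested, 7 rose in SP6A and 7 in SP14 and 0 fell in either, beside 17.1 and 18.4% of all genes higher and 10.8 and 13% lower (median log2 change 1.81 and 2.09, against 0.18 and 0.09 for all genes). ICAM1, the ligand of the integrin LFA-1, averaged 753 TPM in SP6A and 1226 TPM in SP14, against 77.2 TPM in 3D day 12 (log2 change 3.28, adjusted p = 2.97e-08 and 3.98, adjusted p = 1.26e-09). ICOSLG, the ligand of the costimulatory receptor ICOS, rose as well (log2 change 2.63 and 3.08). With FBS, 2 of the 13 rose and 3 fell on the mean of the days, 5 called beside 34.3% of all genes (18.6% higher and 15.7% lower). CD48, a ligand of the SLAM family receptor CD244, averaged 10.9 TPM with FBS, against 77.6 TPM without (log2 change -2.93, SE 0.35, adjusted p = 1.25e-06). LGALS9, the TIM-3 ligand galectin 9, fell (log2 change -1.11) and ICOSLG rose (log2 change 1.10). At day 12, 3 of 14 rose and 6 fell in 3D against 2D, beside 13 and 24.7% of all genes (median -0.28, against -0.21 for all genes), CD48 and SLAMF8 among those that rose (log2 change 1.48 and 1.46). In later 3D culture 3 of 13 rose and 1 fell at day 16, beside 10.3 and 6.25% of all genes. SLAMF8 rose at days 16, 19 and 23 (log2 change 1.35, 1.16 and 1.03). LGALS9 and TNFSF15 rose at days 16 and 19, and at day 23 TNFRSF14 rose and ICAM1 fell. TNFSF9, the 4-1BB ligand, fell to a mean of 1.4, 0.643 and 1.97 TPM at days 16, 19 and 23, against 21.1 TPM at day 12 (adjusted p = 0.000659, 0.000188 and 0.00172).

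Of 15 genes of CD40 signalling and NF-kB, 11 rose in SP6A and 10 in SP14, and 0 fell, beside 17.1 and 18.4% of all genes higher (median log2 change 1.35 and 1.58). TRAF1, an adaptor of TNF receptors, averaged 7.60 TPM in SP6A and 25.2 TPM in SP14, against 1.19 TPM in 3D day 12 (log2 change 1.98 and 3.59). TRAF3, which restrains CD40 signalling, rose too (log2 change 2.22 and 2.53). With FBS 2 rose and 5 fell, beside 18.6 and 15.7% of all genes, among them TNFAIP3, the feedback inhibitor A20, which averaged 11.9 TPM with FBS, against 46.6 TPM without (log2 change -1.92, SE 0.17, adjusted p = 1.29e-08). In E. coli 7 of the 15 rose and 4 fell, beside 13.7 and 42.9% of all genes (median log2 change 0.86, against -0.84 for all genes), with TRAF1 at a mean of 88.3 TPM, against 2.04 TPM in unexposed 3D libraries. Of 16 genes of the interferon and JAK-STAT axis upstream of PD-L1, 5 rose in SP6A and 11 in SP14, and 0 fell (median log2 change 0.79 and 0.99), beside the same shares of all genes. CMTM6, which keeps PD-L1 at the cell surface, rose in both (log2 change 0.97, adjusted p = 0.0291 and 1.32, adjusted p = 0.00343). With FBS 5 rose and 4 fell, again beside 18.6 and 15.7% of all genes, and JAK1 was among those that rose (log2 change 0.55, adjusted p = 0.00115).

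Only 3 genes of the partner list passed the filter in the 3D groups. CD28, the T cell surface molecule that CD80 and CD86 bind, was among them. Its mean was 1.56 TPM at day 12, 14.4 TPM at day 16, 20.2 TPM at day 19 and 2.56 TPM at day 23. CD28 rose at days 16 and 19 (log2 change 2.70, adjusted p = 6.72e-05 and 3.16, adjusted p = 1.45e-05) and was not called at day 23 (log2 change 0.59, adjusted p = 0.330). CD28 averaged 17.8 TPM in SP6A and 21.5 TPM in SP14 and rose in both (adjusted p = 4.75e-05 and 1.19e-05). The T or NK cell marker sum was 42.9 to 43.9 TPM in SP6A and 45.7 to 50.4 TPM in SP14, against 197 to 232 TPM in 3D day 12. NKG7 led that sum at day 12 (mean 206 TPM) and IL7R in SP6A and SP14 (19.1 and 29.2 TPM). CD3D, CD3E, CD3G, CD247 and CD2 were listed at 0 in every day 16 library, where CD28 averaged 14.4 TPM. The part of this sum in the CD28 changes was not tested. At day 19 CD28 had a mean of 2.43 TPM with FBS, against 20.2 TPM without (log2 change -2.63, adjusted p = 0.000154), and at day 23 it had 10.4 TPM with FBS, against 2.56 TPM without (log2 change 1.65, adjusted p = 0.0139). SELPLG, a binding partner of VSIR at acidic pH, rose with FBS (log2 change of the mean 1.23, adjusted p = 3.33e-05). Of 6 other SLAM family genes, 2 rose and 2 fell at each later day, 4 called each time beside 16.6, 11.8 and 25.6% of all genes. CD84 averaged 24.4 TPM at day 16, against 4.10 TPM at day 12 (log2 change 2.32, adjusted p = 6.75e-08), and CD244, the receptor of CD48, fell (listed at 0 at day 16, against 3.36 TPM at day 12). In SP6A and SP14 CD84 averaged 70.4 and 65.3 TPM (log2 change 3.82 and 3.71). These counts describe the lists, and no list was tested as a set.

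Over the 11 group means on the log2 scale, the genes closest to each member among 11939 differed between members. SOD2, a mitochondrial antioxidant enzyme, was closest to SLAMF7 (Pearson r 0.937), and PVR came next (0.933). AFF1, HEIH and STAG2 were closest to CD86 (0.975, 0.97 and 0.966). CD40 lay closest to SLC39A1 (0.962), PDCD1LG2 to ADPGK and STAT4 (0.971 and 0.966), VSIR to OSBPL9 (0.956), CD274 to C1orf112 (0.938) and CD80 to NCEH1 (0.928). These values describe 11 groups that share a normalization, and the genes were picked for the highest values. Over the 32 libraries Pearson r was lower for each named pair. It was 0.425 for CD274 with C1orf112, 0.688 for SLAMF7 with PVR, 0.715 for CD80 with NCEH1 and 0.733 for VSIR with OSBPL9. It was 0.861 for CD86 with AFF1, 0.905 for PDCD1LG2 with ADPGK, 0.909 for SLAMF7 with SOD2 and 0.911 for CD40 with SLC39A1. Among the members themselves CD40 and SLAMF7 had the highest value (0.812) and PDCD1LG2 and SLAMF7 the lowest (-0.224).

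Single cells of 3D day 12 were used to ask which cells held these RNAs. Of 8159 barcodes, 7961 passed the filters, 369 were removed as doublets, and 7592 cells with a median of 16617 UMIs (unique molecular identifiers) formed 15 clusters, with the 7 genes left out of the clustering. Clusters 4, 5 and 6 were macrophage-like, each with 11 of 14 fixed markers, and held 748, 685 and 684 cells, 27.9% of cells and 42.9% of UMIs. IL6, IL1B and CCL3 were among the leading genes of cluster 4, KCNK13, CD163L1 and MRC1 among those of cluster 5, which also had 6 of 9 markers of dividing cells, and IL4I1, SPP1 and TREM2 among those of cluster 6. The other named classes were fibroblast or stroma-like (3612 cells), endothelial-like (305), megakaryocyte or platelet-like (290), granulocyte progenitor-like (278) and erythroid-like (246), and 4 clusters stayed unnamed. Values are pooled CPM (counts scaled to a common UMI total) with exact Poisson 95% intervals, which cover counting error only, and with 1 library no test was made.

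CD86 was concentrated in macrophage-like cells, which held 96.3% of its UMIs. Its level was 253 CPM (249.2 to 257) in macrophage-like cells, against 7.38 CPM (6.83 to 7.97) in the other cells. The level in the other cells depended on doublet removal and was higher with doublets kept, as given in the closing section. By cluster, CD86 had 296 CPM (290 to 302) in cluster 4, 122 CPM (118 to 127) in cluster 5 and 364 CPM (354 to 373) in cluster 6. CD86 UMIs were seen in 92.7% of macrophage-like cells (median 30142 UMIs), against 2.66% of fibroblast or stroma-like cells (median 13317 UMIs), which should lack the gene. After thinning each cell to 5000 UMIs, which left out 8, 13 and 9 cells, the shares were 65.8, 42.3 and 67.0% in clusters 4, 5 and 6, against 0.859% in the largest stroma-like cluster, so the lower level of cluster 5 remained at equal depth. Outside these cells CD86 was highest in the unnamed cluster 11, led by S100A12, S100A8 and FCGR3B (87.7 CPM, 78.3 to 98).

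By pooled CPM, SLAMF7 had the same order of the macrophage-like clusters at lower counts. SLAMF7 reached 25.5 CPM (23.1 to 28.1) in cluster 6, 21.2 CPM (19.5 to 22.9) in cluster 4 and 9.49 CPM (8.27 to 10.8) in cluster 5, and macrophage-like cells held 94.9% of its UMIs. Thinned shares were 10.3, 4.76 and 8.44% of cells in clusters 4, 5 and 6, against 0 of 1048 cells of the largest stroma-like cluster (upper limit 0.351%, exact binomial). By that share cluster 4 (8.18 to 12.7%) and cluster 6 (6.46 to 10.8%) overlapped in their intervals. CD80 was uneven among the macrophage-like clusters, with 10.6 CPM (9.11 to 12.4) in cluster 6, 2.42 CPM (1.88 to 3.07) in cluster 4 and 1.09 CPM (0.707 to 1.61) in cluster 5. Cluster 6 alone held 55.0% of the CD80 UMIs, and its thinned share of cells with CD80 was 4.74% (3.26 to 6.63), against 0.676 and 0.595% in clusters 4 and 5. That share was 0.0954% in the largest stroma-like cluster and 1.23% (0.254 to 3.55) in the unnamed cluster 11. By it clusters 4 and 5 were not set apart from cluster 11. CD274 was at 4.07 CPM (3.60 to 4.58) in macrophage-like cells, against 0.482 CPM (0.349 to 0.649) in the other cells. It had 4.94 CPM (4.07 to 5.94) in cluster 5, 3.98 CPM (3.28 to 4.79) in cluster 4 and 2.99 CPM (2.20 to 3.96) in cluster 6. Thinned shares of cells with CD274 were 2.38, 1.62 and 2.22% in clusters 5, 4 and 6, against 0.191% in the largest stroma-like cluster, and no order among the 3 clusters is read from them. The share was 2.09% (0.683 to 4.81) in megakaryocyte or platelet-like cluster 9 and 2.05% (0.669 to 4.72) in the unnamed cluster 11. By it the macrophage-like clusters were not set apart from clusters 9 and 11.

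CD40 and VSIR were shared with other cells. The endothelial-like cells of cluster 8 had the highest level of CD40, 138 CPM (129 to 148), against 50.6 CPM (48.9 to 52.3) in macrophage-like cells. Thinned shares of cells with CD40 were 46.7% in cluster 8, 32.9% in cluster 6, 21.2% in cluster 4 and 18.5% in cluster 5, against 0.954% in the largest stroma-like cluster. VSIR was highest in the unnamed cluster 11 (211 CPM, 196 to 226) and in granulocyte progenitor-like cells (116 CPM, 108 to 126). Macrophage-like cells had 76.1 CPM of VSIR (74.0 to 78.2), and fibroblast or stroma-like cells had 7.84 CPM (7.12 to 8.61). By cluster, VSIR had 107 CPM (102 to 112) in cluster 6, 74.8 CPM (71.3 to 78.5) in cluster 5 and 59.6 CPM (56.8 to 62.5) in cluster 4. Cluster 6 thus overlapped granulocyte progenitor-like cells in its interval. Thinned shares with VSIR were 39.0% (35.3 to 42.8) in cluster 6 and 43.2% (37.2 to 49.4) in granulocyte progenitor-like cells. Only 63.5% of VSIR UMIs and 71.9% of CD40 UMIs came from macrophage-like cells. PDCD1LG2 was scarce, at 2.42 CPM (2.06 to 2.82) in macrophage-like cells and 1.59 CPM (1.27 to 1.95) in fibroblast or stroma-like cells. Stroma-like cluster 7 had 2.94 CPM (2.07 to 4.05) of PDCD1LG2, above the 1.39 CPM (0.986 to 1.90) of macrophage-like cluster 4. Clusters 9, 10, 12 and 14 had 0 UMIs of it, and fibroblast or stroma-like cells held 32.8% of its UMIs. Thinned shares were 1.22, 1.04 and 1.19% in clusters 4, 5 and 6 and 0.763% in the largest stroma-like cluster. Stroma-like cluster 7 had a thinned share of 0.454% (0.0937 to 1.32). That was below cluster 4 (0.558 to 2.30%), the reverse of their order by pooled CPM, with overlapping intervals. No difference in PDCD1LG2 is read from these shares.

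**Figure D4:**
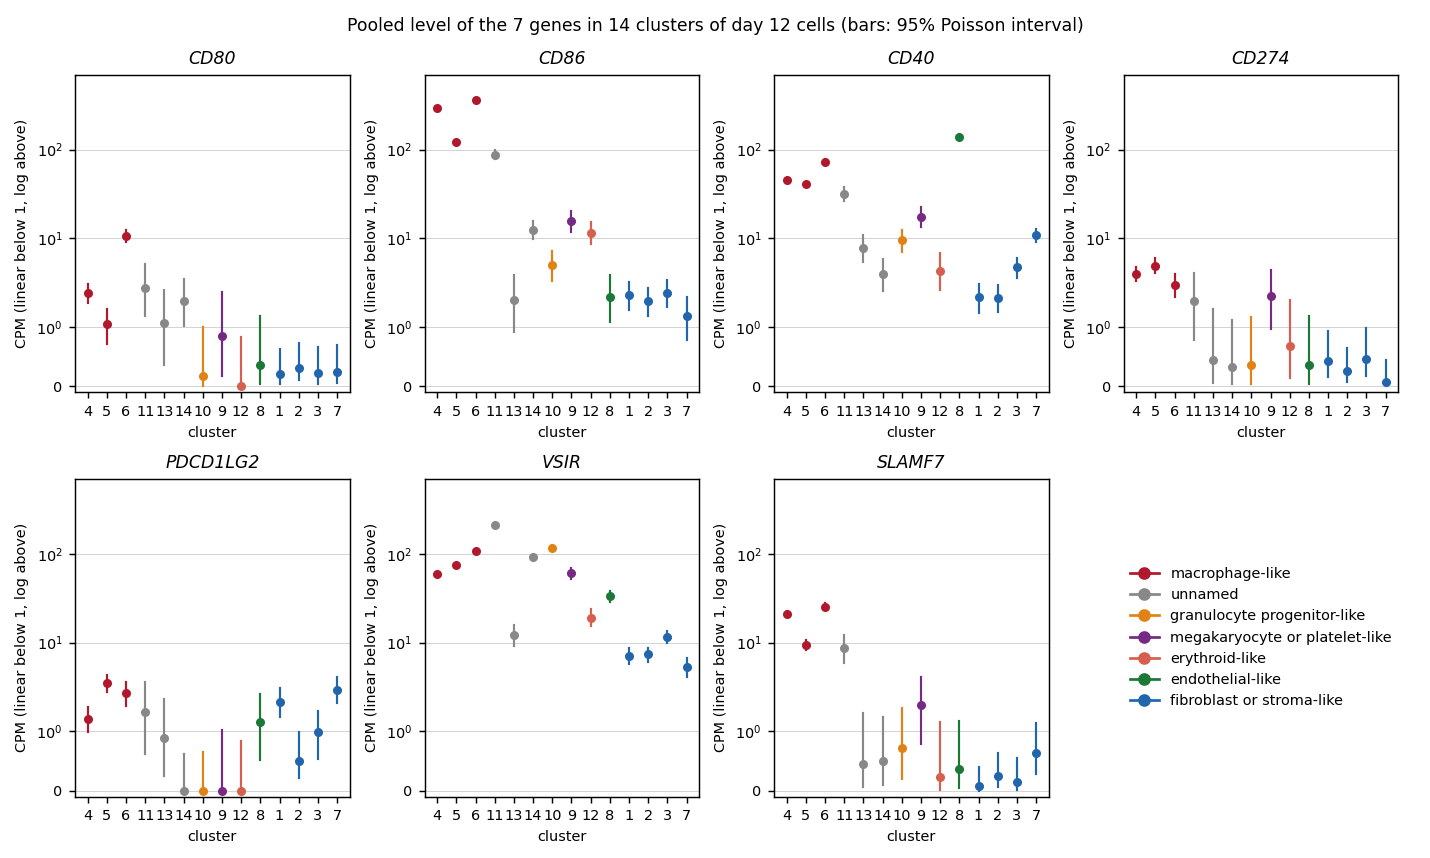
Pooled CPM (y axis, linear below 1 and logarithmic above) of each gene in the 14 clusters of at least 50 cells at 3D day 12 (x axis, coloured by class), with exact Poisson 95% intervals. CD86, SLAMF7 and CD80 were highest in macrophage-like cluster 6, CD40 in the endothelial-like cluster 8 (138 CPM) and VSIR in the unnamed cluster 11 (211 CPM).

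All 7 members could be read together per cell. At 5000 UMIs per cell, 7.03, 6.70 and 15.4% of cells in clusters 4, 5 and 6 had UMIs of 3 or more of the 7 genes, and 18.2, 33.9 and 13.9% had none. In the unnamed cluster 11, 5.74% of cells had 3 or more and 21.7% had none. In the fibroblast or stroma-like clusters 91.8 to 94.2% of cells had none.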

How the data were processed

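Bulk RNA values were TPM as deposited by the authors, in 1 table of 32 libraries, and single-cell values were UMI counts as deposited by the authors (Cell Ranger 7.0.0, per the file headers). Trimming software (Trim Galore 0.4.4), an aligner (HISAT2), a counter (HTSeq 0.11.1) and the builds hg38 and GRCh38 are listed in the submitters' processing notes. No source used here says what computed the TPM. TPM is relative to each library's total, so a gene class that takes a large share lowers the rest.

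Groups came from the labels. The test was limma 3.58.1 (R 4.3.3) on log2(TPM + 1) for genes with a mean of at least 1 TPM, with Benjamini-Hochberg adjustment over all genes tested and a threshold of 0.05. One fit held 3D and 2D day 12 (8 libraries), the other all 28 3D libraries, which share 1 estimate of the spread. Members under the filter were tested by exact permutation. The E. coli libraries carry no day, so day and exposure cannot be told apart. Members and gene lists were chosen with earlier results of these data known. Named list genes are those called with the lowest adjusted p, up to 4 per list and comparison, and closest genes needed a group mean of at least 5 TPM.

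Cells had at least 1000 UMIs and 500 genes and at most 15% mitochondrial UMIs. Scrublet doublets were removed, and scanpy 1.11.5 and leidenalg 0.10.2 clustered them (2000 variable genes, 30 components, 15 neighbours, resolution 0.5). A cluster of at least 50 cells was named where at least 5 markers, and most of its list, reached 20 CPM and 2 times the other cells, a rule chosen after the clusters were seen. Poisson and binomial intervals are exact, at 95%. Alternatives were a pseudocount of 0.5, no filter, median-ratio scaling, a replicate block, leaving out libraries, at least 3000 UMIs, doublets kept and resolution 1. Chromatin data and the other single-cell days were not analysed here.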

Additional observations from a re-analysis of the deposited data

Results flagged for a closer look

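CD86 had 1 2D day 12 library, at 36.28 TPM, far from the other 3, which lay at 28.7 to 29.3 TPM. PDCD1LG2 had 1 2D day 12 library at 0.24 TPM while the other 3 were listed at 0. These were the 2 flags among 14 combinations of gene and group of 4 libraries, and chance flags about 1 in 20. That rate does not carry over to PDCD1LG2, since beside 3 libraries at 0 any other value stands apart. The effect of FBS differed between days 16, 19 and 23 for 2 of 7 genes in limma's test of the interaction, CD40 (adjusted p = 0.00181448) and VSIR (adjusted p = 0.00012923). CD40 was lower with FBS in 3 of 3 libraries at days 16 and 19 and overlapped at day 23, while VSIR was higher with FBS in 3 of 3 libraries at day 23 and overlapped at days 16 and 19.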

How the results depend on the processing

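Without the E. coli libraries in the fit, the genes called numbered 3435 at day 16 against day 12 (2219 with them), 2567 at day 19 (1575), 3672 for FBS at day 16 (2417), 2973 for FBS at day 23 (1838) and 3181 for the interaction of FBS and day (1728). With no filter they numbered 6468 for SP6A (3736) and 544 for SP14 against SP6A (4), and a pseudocount of 0.5 gave 2 for the last. Leaving out single libraries gave 1510 to 1963 for FBS at day 16, 2003 to 3438 for SP6A, 2568 to 3920 for SP14 and 4 to 8 for SP14 against SP6A. The cause was not tested. Median-ratio scaling of the TPM changed the higher and lower calls to 2351 and 2562 for 3D against 2D (1710 and 3249 as deposited), 765 and 1417 at day 16 (1382 and 837), 681 and 1104 at day 19 (853 and 722), 1629 and 2112 for SP6A (2290 and 1446), 1823 and 2371 for SP14 (2457 and 1744) and 869 and 881 for FBS at day 23 (1187 and 651). It moved the median log2 change of all genes from 0.18 to -0.08 at day 16, from 0.18 to -0.06 for SP6A and from 0.09 to -0.14 for SP14, and the changes of uncalled members near 0 crossed it: VSIR in 3D against 2D (0.10), CD86 at day 19 (-0.14), CD274 with FBS on the mean of the days (-0.0099), CD80 with FBS at day 16 (0.079), CD40 with FBS at day 23 (-0.070) and VSIR in E. coli (0.013). Leaving out single libraries, changes of uncalled members crossed 0 as well: CD40 in 3D against 2D (-0.040 to 0.25), CD86 and PDCD1LG2 at day 19 (-0.29 to 0.24 and -0.016 to 0.44), CD80 with FBS on the mean and at days 16, 19 and 23 (-0.32 to 0.16, -0.68 to 0.70, -1.18 to 0.18 and -0.037 to 0.66), CD274 with FBS likewise (-0.13 to 0.19, -0.11 to 0.54, -0.013 to 0.31 and -0.69 to 0.27), PDCD1LG2 in SP14 against SP6A (-0.17 to 0.20), and CD80, CD274, CD40 and VSIR in E. coli (-1.61 to 2.20, -0.42 to 1.44, -0.25 to 0.41 and -0.45 to 0.10). With 1 library left in a group, it is assumed to vary like the other groups. SLAMF7's interaction of FBS and day was called without the third day 19 FBS library (adjusted p = 0.0289). A block for replicate numbers kept 88 of 89 values on their side of the threshold, the exception being CD274 at day 23 (-1.37, adjusted p = 0.126). Same-numbered libraries did not deviate together (0 of 4 and 0 of 111 pairs with a correlation over 0.1). With doublets kept, 6 of 14 single-cell levels moved beyond their counting interval, CD86 among them (248 CPM in macrophage-like and 18.9 CPM in other cells), and 14 of 14 did not with at least 3000 UMIs or at resolution 1. CD80, CD274 and PDCD1LG2 were listed at 0 in 5, 4 and 9 libraries, and SLAMF7 in 2. No source used here gives read depth, so whether depth limits these values was not tested.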
